A study of Arabidopsis thaliana with 72 samples.

Results

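Shoots of Arabidopsis thaliana seedlings given ethanol and labelled 1 h were compared with shoots given ethanol and labelled 0 h, across all loci. The comparison held 6 of the 72 libraries of the series: 3 of ethanol at 1 h and 3 of ethanol at 0 h, chosen by their organ, agent and time labels alone. The seedlings of all groups were 14 days old and had grown on agar plates with sucrose under 16 h of light and 8 h of dark. Treatment was given 7 h into the light period as 8 mL of liquid per plate, per the labels. In these 6 libraries the agent was 0.1% ethanol, the solvent of citral, and no citral was given. Over the whole series, shoots and roots received citral at 202 µM, ethanol or nothing, in 24 groups of 3 libraries. The agent labels, which name citral, were followed, although the protocol text speaks of t-chalcone at 21 µM. Whether the 3 replicates of a group were grown on separate plates is not stated, so p-values measure only a spread between libraries, which may be technical. For the shoot comparisons that spread was estimated over all 36 shoot libraries, those of citral among them. No untreated plants were labelled 1 h, so ethanol, wetting, handling and the passing of time cannot be told apart.

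Several responses of a shoot run on the scale of an hour. Submerged or wetted tissue that runs short of oxygen stabilises group VII ERF factors, which switch on fermentation enzymes and the sensors that later end the response. Touch raises calmodulin-like proteins and stress transcription factors within minutes. The circadian clock moves a large share of leaf transcripts through the day: CCA1 and LHY peak around dawn and hold back evening genes such as TOC1, which carry the evening element bound by CCA1. Light-harvesting genes are driven by light and by the clock together, while genes of sugar starvation and darkness rise when carbon runs short.

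The 6 libraries held 8.31 to 20.6 M recovered reads, and levels below are counts per M reads after TMM scaling (scaled CPM). The 3 libraries of 0 h held 8.31, 11.7 and 11.7 M and those of 1 h 12.9, 13.6 and 20.6 M. The shoot label was checked with markers of both organs. RBCS1A, a small subunit of Rubisco, stood between 5160.2 and 8411 scaled CPM in the 6 libraries, and the 13 markers of root tissue summed to 7.37 to 18.5. Of these, COBL9 of root hairs stayed at or under 0.507 and CASP1 of the Casparian strip at or under 3.38. Between libraries of the same group the variance was 4.67 to 27.6 times the sampling noise, and the largest values were those of pairs with 1 h replicate 3. In the bulk shoots, fewer cells of a type and less RNA per cell cannot be told apart.

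The libraries labelled 1 h did not follow the labelled order of hours in their clock genes. Over 23 clock genes the root mean square log2 distance from the 1 h group was 2.19 to the ethanol group of 0 h and 2.46 to that of 3 h, but 0.91 to that of 6 h. The ethanol groups of 0 h and 3 h lay 0.71 apart, and the ethanol and untreated groups of 0 h lay 1.02 apart. The ethanol group of 24 h, with 2 libraries of at least 0.5 M reads, lay 2.32 from that of 0 h. TOC1, an evening component of the clock, stood at 35.9, 47.2 and 41.0 scaled CPM at 0 h and at 179, 184 and 222 at 1 h. It was back at 33.9, 34.2 and 40.7 at 3 h and again at 157, 176 and 191 at 6 h. The citral libraries labelled 1 h, which share no sample with these, lay 1.03 from the ethanol libraries of 1 h and 1.09 from the ethanol group of 6 h. The hours are therefore given as labelled, and what set this order was not tested. The change between the ethanol groups of 6 h and 3 h, a pair that shares no library with the 6 compared here, is set beside the results of the lists for which it is printed below.

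A clock motif stands before the start of some of the genes named below. FKF1, a blue-light receptor of the flowering pathway, and TOC1 both rose. Each carries the evening element in the 250 bases before its annotated start. They are shown because both moved together and share that motif. The element is AAAATATCT, searched on both strands and printed in capitals, where AGATATTTT is its reverse complement. The sequences are from the RefSeq annotation of TAIR10.1, 5′ to 3′ on the strand of the gene: FKF1 at chr1:25508389-25508638 (plus strand) and TOC1 at chr5:24674713-24674962 (plus strand).
FKF1: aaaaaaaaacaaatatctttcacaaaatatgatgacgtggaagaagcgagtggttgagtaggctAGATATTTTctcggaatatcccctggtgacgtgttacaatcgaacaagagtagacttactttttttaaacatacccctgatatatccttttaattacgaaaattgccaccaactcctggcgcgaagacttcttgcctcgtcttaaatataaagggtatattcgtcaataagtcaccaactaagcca
TOC1: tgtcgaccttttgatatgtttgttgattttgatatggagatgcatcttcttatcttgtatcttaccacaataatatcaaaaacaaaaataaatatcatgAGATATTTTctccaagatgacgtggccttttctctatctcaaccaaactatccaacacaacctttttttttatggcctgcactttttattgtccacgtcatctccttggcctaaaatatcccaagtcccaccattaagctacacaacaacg
The element was present in 500 of 19486 such windows of tested loci (2.57%), in 60 of 1556 windows (3.86%) of loci that rose by 2-fold or more and in 49 of 2174 (2.25%) of loci that fell as far. Of the other named genes, COR27 (2 copies) and PDC2, which rose, and PORA, which fell, also carry it. The windows of the clock genes ELF4 and PRR3, which rose, do not hold these letters. The ELF4 window opens with the element less its first letter, and bases beyond the window were not searched. A match is a string of letters and says nothing of binding.

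Across all loci the change was broad. Of 19585 loci tested with limma's voom and library quality weights, 11175 (57.1%) passed the threshold of 0.05 on the Benjamini-Hochberg adjusted p, and such loci are named called. At 1 h 5333 loci (27.2%) were higher and 5842 (29.8%) lower, and the median change over all loci was -0.01 on the log2 scale. The change reached 2-fold in 1560 loci that rose (7.97%) and in 2182 that fell (11.1%). In 11802 loci (60.3%) the 3 libraries of 1 h did not overlap the 3 of 0 h. The count rests on how the spread was modelled: without library quality weights 4956 loci were called, and by limma-trend with a pseudocount of 0.5 CPM 2084 were.

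**Figure D1:**
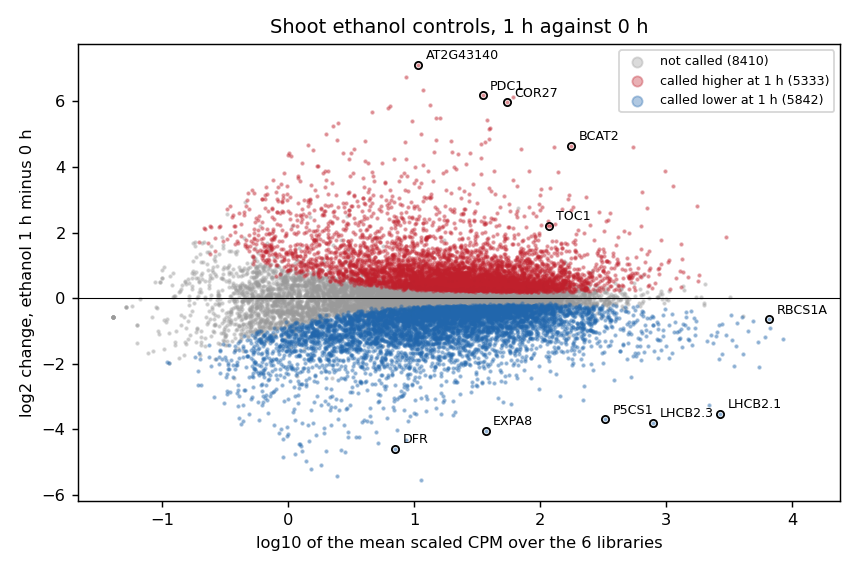
Each point is 1 of the 19585 loci tested; the x axis is the log10 of the mean scaled CPM over the 6 libraries and the y axis the log2 change from ethanol 0 h to ethanol 1 h. Red loci (5333) were called higher and blue loci (5842) lower, grey loci were not called, and circled genes are named in the text.

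The largest rises were in genes that were close to silent at 0 h. AT2G43140, a bHLH transcription factor gene on chromosome 2, stood at 1.15 scaled CPM in 1 library of 0 h and at the floor of the table in the other two. At 1 h it stood at 20.1, 24.3 and 19.2, a change of 7.12 ± 0.81 (log2 ± SE, n = 3 per group, limma adjusted p = 1.6e-08). Groups that do not overlap were a condition for entering the 12 largest rises. FRK1, the receptor-like kinase named for its induction by flagellin peptide, stood at 0.709 in 1 library and at the floor in the other two at 0 h, and at 16.4, 29.4 and 5.28 at 1 h. ORS1, a regulator of organ size, rose by 6.36 ± 1.29, from 0.175 to 0.376 at 0 h to between 10.8 and 35.5 at 1 h. The kinase-like gene AT3G46280 stood at 1.63, 3.72 and 1.23 against 128, 178 and 51.9, and the leucine-rich repeat kinase gene AT1G51820 rose by 5.90 ± 1.12. The AP2/ERF factor gene ABR1, a repressor of abscisic acid responses, held evenly to 29.5, 24.6 and 33.0 at 1 h against at most 1.77 at 0 h. The remaining large rises were in DTX1, a MATE efflux carrier, AT2G17740, a C1 domain protein, and AT1G07050, a CCT motif protein, at 5.79 ± 1.05, 5.41 ± 1.39 and 5.85 ± 0.60. In FRK1, ORS1, AT3G46280, AT1G51820, DTX1 and AT2G17740 the library of 1 h replicate 2 was the highest of its group and replicate 3 the lowest.

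COR27, a cold-regulated repressor tied to the clock, rose by 5.98 ± 0.26 (adjusted p = 4.2e-18), from 1.38, 1.77 and 1.58 scaled CPM at 0 h to 95.8, 90.7 and 139 at 1 h. Its standard error was the smallest among the 12 largest rises, and it was high again at 6 h, at 71.9, 67.2 and 67.7, after 0.884 to 1.14 at 3 h. AT1G07050 did the same: the libraries of 1 h held 8.10 to 15.1, those of 3 h only 0.624 to 0.909 and those of 6 h 58.9 to 65.0. AT2G43140 instead stood at 8.13 to 22.6 at 3 h and 3.39 to 4.74 at 6 h, so both kinds of course were present among the genes that rose most.

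The largest falls included enzymes, wall proteins and proteins of the antenna. DFR, dihydroflavonol reductase of anthocyanin synthesis, stood at 15.9, 11.3 and 13.4 scaled CPM at 0 h and at 0.435, 0.831 and 0.455 at 1 h, a change of -4.59 ± 0.85. EXPA8, an expansin that loosens cell walls, fell from 105, 44.8 and 60.2 to 3.98, 4.08 and 3.69 (-4.05 ± 0.30, adjusted p = 7.5e-12). At 3 h EXPA8 stood at 39.3 to 49.8 and at 24 h at 153 and 162, so only the 1 h libraries were low among the ethanol groups. The pectin lyase-like genes AT1G10640 and AT1G60590 fell by 4.33 and 4.01 on the log2 scale. P5CS1, the enzyme that sets the rate of proline synthesis, stood at 735, 484 and 613 at 0 h and at 45.8, 43.2 and 58.9 at 1 h (-3.69 ± 0.20). Unlike EXPA8 it stayed low, between 51.5 and 81.0 in every ethanol library of 3 to 24 h with at least 0.5 M reads, while untreated shoots of 0 h held 1187 to 1726. LTP4, a lipid transfer protein, followed P5CS1: it stood at 17.9 to 19.9 at 0 h, at 1.01 to 4.01 at 1 h and at or under 0.970 at all later labelled times. BBX16, a B-box factor of light signalling, fell by 3.56 on the log2 scale (adjusted p = 1.7e-16), and the other falls of this size were in AT3G56080, a methyltransferase-like gene, AT4G33550 and the subtilase gene AT5G45650, by 3.76, 3.65 and 3.59, and in AT1G14250, a nucleoside phosphatase gene, by 3.52.

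**Figure D2:**
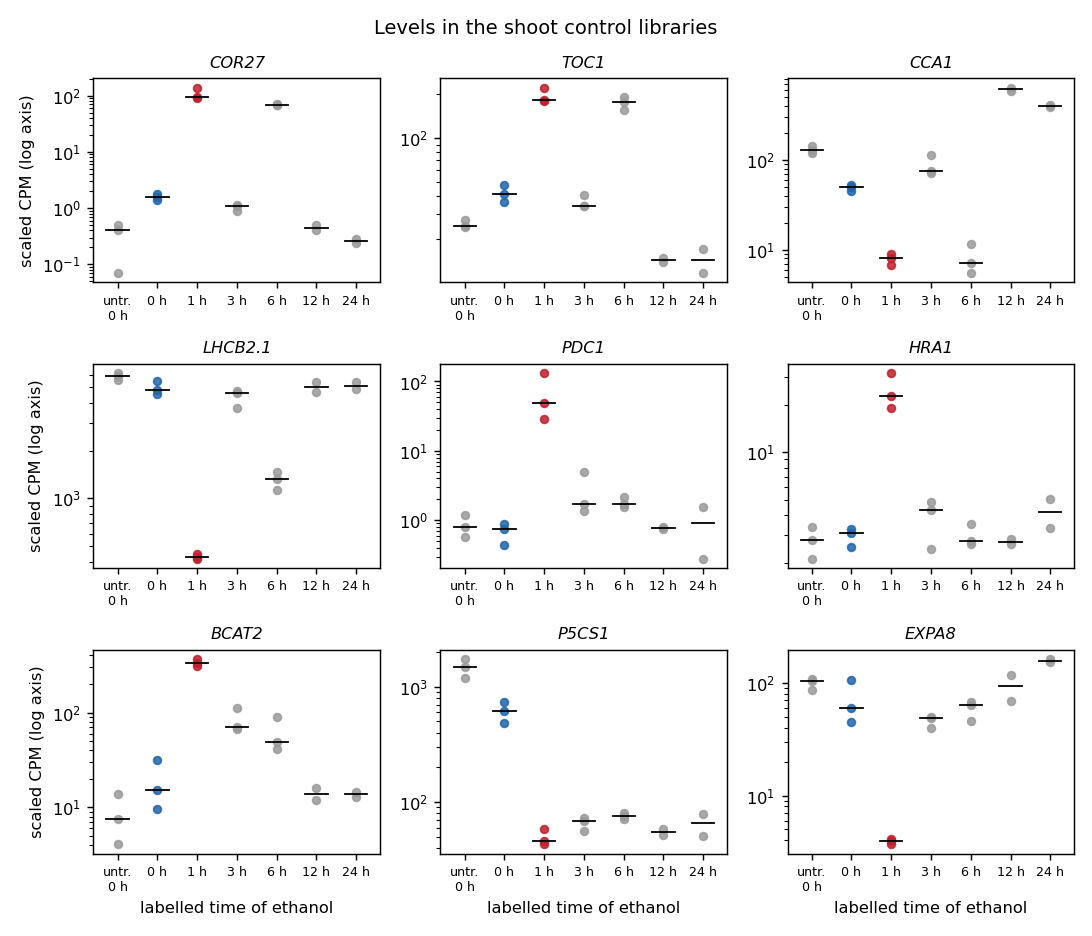
Scaled CPM (log axis) of 9 genes in the shoot control libraries of at least 0.5 M reads, by labelled time; points are libraries (blue ethanol 0 h, red ethanol 1 h, grey the other groups, untr. for untreated) and bars are medians. COR27 and TOC1 were high and CCA1 low at 1 h and 6 h, PDC1 and HRA1 were high at 1 h only, P5CS1 stayed low from 1 h on, and EXPA8 was low at 1 h only.

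Of the core hypoxia genes 16 of 18 tested rose and 0 fell, against 27.2% of all loci that rose. Their median change was 2.74 on the log2 scale, and -0.01 over all loci. PDC1, pyruvate decarboxylase of ethanol fermentation, stood at 0.751, 0.443 and 0.877 scaled CPM at 0 h and at 48.8, 131 and 29.2 at 1 h, a change of 6.19 ± 0.87 (adjusted p = 1.3e-06). The 1 h libraries differed among themselves. ADH1, alcohol dehydrogenase, went from 10.9, 8.86 and 10.4 to 40.9, 119 and 26.0 (2.31 ± 0.37), with the same library highest and the same lowest as in PDC1. Among the regulators, HRA1, which restrains the hypoxia response, went from 2.50, 3.28 and 3.07 to 31.6, 22.8 and 19.2 (3.08 ± 0.22). PCO1, a cysteine oxidase that marks group VII ERFs for breakdown, rose by 5.02 ± 0.55 and PCO2 by 3.72. SAD6, an acyl-carrier-protein desaturase, rose by 5.49 ± 1.15 and spread widely at 1 h, at 32.7, 55.5 and 6.24. ETR2, an ethylene receptor, rose from 2.28 to 3.63 at 0 h to between 35.1 and 65.1 at 1 h, and haemoglobin HB1 rose by 3.89. The members not called were the sucrose synthase SUS1, at 0.29, and the ERF factor HRE2, at 1.52.

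The hypoxia genes differed in their later course. Between 3 h and 6 h 3312 loci were called (16.9%), but 1681 without 6 h replicate 3 and 2160 without 3 h replicate 2. Of the 18, 1 was higher and 3 were lower (9.56% and 7.35% of all loci), and the difference between the changes of 1 h minus 0 h and 6 h minus 3 h was called in 12 of 18, each larger for 1 h (22% of all loci). PDC1 stood at 1.36 to 4.89 in the libraries of 3 h and 1.55 to 2.19 in those of 6 h, and HRA1 at 2.43 to 4.84 and 2.61 to 3.49. In 13 of the 18 genes replicate 2 was the highest library of 1 h and in 15 replicate 3 was the lowest. Without 1 h replicate 3 18 members were called higher and without replicate 2 15 were, against 5123 and 4588 of all loci. In the small set of ethanol and aldehyde enzymes, 6 of 11 tested rose and 3 fell, where 27.2% of all loci rose and 29.8% fell, so the falls came at about the rate of all loci. PDC2 rose by 2.17 ± 0.15, from 18.3 to 24.2 at 0 h to between 81.2 and 102, while ALDH2B7, a mitochondrial aldehyde dehydrogenase, fell by 0.88 on the log2 scale and ADH2 stood at -0.08.

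Genes of photosynthesis fell. All 33 genes of the photosystems and the Calvin cycle fell, with a median of -1.10 and a range of -1.83 to -0.32, where 29.8% of all loci fell. Of 19 light-harvesting genes 16 fell and 0 rose (median -1.24), and of 19 genes of chlorophyll synthesis and light signalling 16 fell and 0 rose (median -1.48). These sets took 17.3 to 19.3% of the reads of the 0 h libraries and 9.17 to 9.92% of those of 1 h, counting the 52 genes of the photosystem, Calvin cycle and light-harvesting lists. Under quantile normalization, which forces all libraries to 1 distribution, 3 genes of the photosystem and Calvin cycle list were instead called higher, RBCS1A among them, and 27 lower; of the light-harvesting genes 1 was called higher and 11 lower.

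The sizes differed within the light-harvesting family. LHCB2.1, an antenna protein of photosystem II, stood at 5486, 4567 and 4802 scaled CPM at 0 h and at 427, 418 and 446 at 1 h, a change of -3.52 ± 0.18 (adjusted p = 2.7e-15). LHCB2.2 and LHCB2.3 fell by 3.27 and 3.80 on the log2 scale, and LHCB3 fell by 2.11, from between 8105 and 9499 to between 1944 and 2424. LHCB1.1 went from 5063 to 6330.1 down to 1246 to 1415, whereas LHCB1.3 stood at -0.34 and LHCB1.4 at -0.54 and neither passed the test. The LHCB1 and LHCB2 genes are near-identical copies, so reads may be split between them in counting. In photosystem I, PSAH2 and PSAD2 fell by 1.83 and 1.75 on the log2 scale, and in photosystem II PSBO2 of the oxygen-evolving complex fell by 1.67. RBCS1A went from 7632 to 8411 down to 5160.2 to 5245 (-0.63 ± 0.11), and quantile normalization turned that sign.

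Among the chlorophyll enzymes CAO, which makes chlorophyll b, stood at 444, 325 and 384 scaled CPM at 0 h and at 56.2, 67.6 and 61.8 at 1 h (-2.67 ± 0.11, adjusted p = 4.2e-18). The light-dependent protochlorophyllide reductases PORA and PORC fell by 2.55 and 2.21 on the log2 scale, and SIG5, a sigma factor of the chloroplast polymerase, went from 29.3 to 31.9 down to between 3.32 and 3.48 in 2 libraries and slightly above in the other. The 3 members not called were HYH, ELIP1 and ELIP2, all under 5 scaled CPM. From 3 h to 6 h 16 of the 19 light-harvesting genes were also lower (7.35% of all loci), but by less, with a median of -0.59. The fall of 1 h was larger than that of 6 h in 12 of them and in 26 of the 33 photosystem and Calvin cycle genes (27.1% of all loci). LHCB2.1 stood at 3708 to 4732 at 3 h and 1136 to 1458 at 6 h.

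Of the 23 clock genes 12 rose and 10 fell, against 27.2% and 29.8% of all loci, and only RVE2 was not called. CCA1 stood at 52.2, 50.5 and 45.4 scaled CPM at 0 h and at 8.18, 9.07 and 6.83 at 1 h (-2.57 ± 0.19). LHY fell by 2.64 on the log2 scale and CDF1, a repressor of flowering, by 3.43. FKF1 rose from 1.75 to 2.57 to between 35.2 and 46.0, a change of 3.99 ± 0.24, and ELF4 of the evening complex by 3.56 ± 0.34. PRR3 rose by 2.96 and the RNA-binding protein GRP7 by 2.82. In 12 of the 23 every library of 1 h was above those of 0 h, and in 10 every one was below. Over all loci the groups did not overlap in 60.3%. From 3 h to 6 h 12 of the 23 were higher and 8 lower (9.56% and 7.35% of all loci). Over those hours FKF1 rose by 4.17, CCA1 fell by 3.61 and TOC1 rose by 2.32. The change of TOC1 from 0 h to 1 h was 2.22 ± 0.11. The difference between both changes was -0.11 for TOC1 (adjusted p = 0.59), -0.18 for FKF1 (adjusted p = 0.65) and -0.03 for COR27 (adjusted p = 0.96). It was called in 13 of 23 clock genes, against 49.1% of all loci, CCA1 among them (1.04, adjusted p = 0.003). CDF1 (-1.80), ELF4 (-1.24) and PRR3 (-0.95) were also among these 13.

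**Figure D3:**
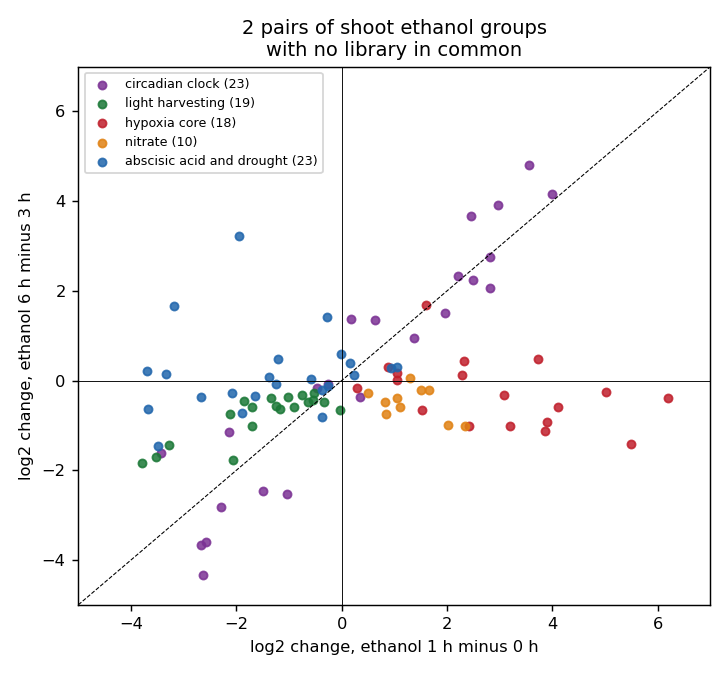
Each point is a member of 1 of 5 gene lists, with the log2 change from 0 h to 1 h of ethanol on the x axis and from 3 h to 6 h on the y axis; the dashed line marks equal changes. In 22 of 23 clock genes both changes have the same sign, and light-harvesting genes are negative on both axes. Hypoxia and nitrate genes are positive on the x axis and lie between -1.41 and 1.70 on the y axis. Of the 2236 loci called in both intervals, 955 (42.7%) changed in the same direction and 1281 in opposite directions.

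Of the 20 genes of sugar shortage and darkness 14 rose and 0 fell (median 0.78), against 27.2% and 29.8% of all loci. BCAT2, a branched-chain amino acid transaminase, stood at 15.3, 31.5 and 9.65 scaled CPM at 0 h and at 309.8, 365 and 335 at 1 h, a change of 4.64 ± 0.44 (adjusted p = 2.8e-09). The 1 h libraries were alike and all far above the highest of 0 h. DIN10, a raffinose synthase-like gene of dark-treated leaves, rose from 999.9 to 1954 to between 4154 and 4874, and DIN11, a dioxygenase, rose by 2.33 ± 0.51. BGLU30, a dark-induced beta-glucosidase, rose by 2.35 ± 0.57, while ASN1, asparagine synthetase, stood at 0.44 and did not pass the test. Without 0 h replicate 3 8 of the members were called, where 3958 of 19581 loci were called higher and 4397 lower. From 3 h to 6 h 3 of 20 were higher and 0 lower (9.56% and 7.35% of all loci). All 10 nitrate genes tested rose, by 0.49 (LBD37) to 2.35 (NIA1), and in each the groups did not overlap, where 27.2% of all loci rose. NIA1, nitrate reductase, went from 109.9, 149 and 103 to 648, 635 and 369.9, and the nitrogen-responsive LBD38 from 29.3 to 35.4 to between 93.5 and 107. NIA1 stayed high, at 583 to 948 at 3 h and 343 to 457 at 6 h. From 3 h to 6 h 4 of the 10 were lower and 0 higher, and in all 10 the change of 1 h minus 0 h was the larger of both (22% of all loci).

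Stress regulators moved in both directions and differed among replicates. Of 23 ERF and WRKY factors 9 rose and 3 fell, against 27.2% and 29.8% of all loci. From 3 h to 6 h 0 of them were called (16.9% of all loci). Of 20 touch and calmodulin-like genes 5 rose and 2 fell. The touch genes thus rose in a share close to the 27.2% of all loci. WRKY6, a factor of senescence, stood at 7.76, 7.80 and 4.65 scaled CPM at 0 h and at 32.0, 41.0 and 15.9 at 1 h (2.36 ± 0.31). WRKY18 stood at 13.5, 109 and 36.6 against 183, 192 and 158 (2.35 ± 0.40), so the groups did not overlap but the 0 h libraries differed widely. For WRKY53, at 7.76, 15.9 and 7.02 against 36.1, 59.6 and 12.7, the groups overlapped, although the change of 1.98 ± 0.40 was called. WRKY22 of flagellin signalling rose by 2.15 ± 0.28, and ERF105 was among those that fell, by 1.27 on the log2 scale. In 22 of the 23 factors replicate 2 was the highest library of 0 h, in 21 replicate 2 was the highest of 1 h, and in 22 replicate 3 was the lowest of 1 h. Without 1 h replicate 3 13 of the factors were called higher, and without replicate 2 7 were. Over all loci 5123 of 19575 and 4588 of 19563 were called higher in those settings, in the same order.

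CML38, a calmodulin-like protein, stood at 21.5, 93.7 and 49.8 against 152, 173 and 54.4, and CAF1B, a deadenylase of wounding, at 6.76, 13.8 and 9.03 against 39.8, 66.3 and 9.06. Both were called but their groups overlapped, and 0 of the touch genes rose without overlap, where 29.2% of all loci did. The fall of CBF3, of cold acclimation, was by 2.33 ± 0.74 on the log2 scale, and GOLS1, galactinol synthase, stood at 19.8, 15.3 and 16.1 against 5.72, 7.06 and 8.69. Without 1 h replicate 3 9 touch genes were called higher, and 2 were without replicate 1 or without replicate 2. The count was 2 without 0 h replicate 1 and 3 without 0 h replicate 3. Over all loci 3958 to 5123 were called higher in these settings. Against untreated shoots of 0 h, which share the 1 h libraries, 17 of 20 touch genes were higher and 2 lower, and 21 of the 23 factors were higher and 0 lower. In that comparison 12414 loci were called (63.4%), 30.5% of all loci higher and 32.9% lower. CML38 stood at 4.28 to 5.77 scaled CPM in untreated shoots and WRKY18 at 7.77 to 19.0, under the ethanol shoots of 0 h for CML38 in every library.

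Among the jasmonate genes 9 of 23 rose and 7 fell, against 27.2% and 29.8% of all loci, so the share that fell was that of all loci. JAZ8, a repressor, rose by 3.12 ± 0.69, from 0.501, 0.354 and 0.175 scaled CPM at 0 h to 3.33, 4.92 and 0.910 at 1 h. CYP94C1, which breaks the hormone down, rose by 3.05 ± 0.41, from at most 6.91 scaled CPM at 0 h to 23.0 in both higher libraries of 1 h. The synthesis genes LOX2, AOS and AOC1 fell by 1.34, 1.21 and 1.12 on the log2 scale, and VSP2, a storage protein of the response, fell from 182, 169.6 and 164 to 25.4, 18.7 and 33.9. CYP94B3 stood at 13.5, 11.9 and 0.774 at 1 h against 1.25 to 1.84 at 0 h, so its call (1.88 ± 0.79, adjusted p = 0.045) went with overlapping groups. Of 19 detoxification genes 6 rose and 3 fell, so the share that rose was near the 27.2% of all loci and the share that fell below the 29.8%. The glutathione transferases GSTF6 and GSTF7, near-identical neighbours on chromosome 1, rose by 3.36 ± 0.36 and 2.87 ± 0.30, GSTF2 went from 74.0 to 121 up to 404 to 627, and GSTU4 rose from 0.751, 0.975 and 0.439 to 3.69, 8.45 and 5.69, while GSTU19 fell by 1.00. Of 24 heat shock genes tested 3 rose and 5 fell, both below the shares of all loci, and 5 were at the floor in every library of 0 h. HSFA7A rose by 2.49 ± 0.24 and DREB2A, at 5.38, 2.57 and 3.77 against 18.6, 35.8 and 4.60, had overlapping groups, while HSFB2B fell by 1.76 on the log2 scale and HSP18.2, a small heat shock protein, by 2.36.

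Genes of growth and water balance were mostly lower. Of 26 auxin genes tested 19 fell and 2 rose (median -1.08), against 29.8% and 27.2% of all loci. SAUR19, a small auxin-up RNA that promotes cell expansion, stood at 5.13 and 6.38 scaled CPM in 2 libraries of 0 h and lower in the other, and at 1 h at 0.145 and 0.410 with the remaining library at the floor. SAUR20, SAUR21 and SAUR24 of the same chromosome 5 cluster fell by 4.23, 3.58 and 3.42 on the log2 scale; their sequences are close, so counting could split their reads. The Aux/IAA repressor IAA29 fell by 1.68, and GH3.3, which conjugates auxin, rose by 1.12. Of 20 cell expansion genes 11 fell and 6 rose, the second a share near that of all loci. Of the 26 auxin genes 7 were lower from 3 h to 6 h and 0 higher, and 4 of the 20 cell expansion genes were lower and 2 higher. Over those hours 7.35% of all loci were lower and 9.56% higher. The share of cell expansion genes that were higher was thus near that of all loci. The bHLH protein gene PRE1, which acts in gibberellin and brassinosteroid growth, fell by 3.75 on the log2 scale. The risers were wall enzymes of the XTH family: XTH15 went from 23.7, 75.3 and 50.2 to 312, 277 and 362, and XTH23 from 15.5, 89.7 and 33.5 to 157, 199 and 113. Of 8 type-A response regulators of cytokinin 4 rose and 2 fell (27.2% and 29.8% of all loci); ARR9 fell by 1.37 on the log2 scale, ARR6 rose by 1.28, while ARR7, at 0.88, and ARR15, at 1.51, were called with overlapping groups. The call of ARR7 was lost without 0 h replicate 1 or 3 and without 1 h replicate 2, and ARR15 turned sign without 0 h replicate 3. Without that library 1 of the 8 was called higher (3958 of 19581 loci).

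Of 23 genes of abscisic acid and drought 14 fell and 2 rose (median -1.25), against 29.8% and 27.2% of all loci. RD29B, a target of the hormone, stood at 4.63, 4.87 and 4.39 scaled CPM at 0 h and at 0.217, 0.277 and 0.683 at 1 h (-3.68 ± 0.52). HAI1, a phosphatase of the hormone's signalling, fell by 3.33 and KIN1 by 3.48. COR15A and COR15B, chloroplast proteins of cold acclimation, fell by 3.18 and 1.95, and the dehydrins COR47 and ERD10 rose by 1.05 and 0.94. From 3 h to 6 h 3 of the 23 were higher and 2 lower, shares near those of all loci (9.56% and 7.35%). Over those hours COR15A rose by 1.65, COR15B by 3.22 and HAI1 stood at 0.15. Of 15 aquaporins 13 fell and 0 rose (median -0.90), and from 3 h to 6 h 4 were lower and 1 higher (7.35% and 9.56% of all loci). PIP2;1, the plasma membrane water channel, stood at 903, 929 and 892 against 263, 315 and 277 (-1.68 ± 0.11, adjusted p = 7.4e-14). PIP1;4 and PIP2;8 fell by 1.39 and 1.24, and PIP2;4 by 1.75 at levels under 5 scaled CPM. The called reference genes of PCR rose, 4 of 10 against 27.2% of all loci, each by under 1 on the log2 scale: ACT2 went from 382 to 456 to between 653 and 738, UBQ10 and UBC9 rose by 0.75 and 0.66, and the TIP41-like gene AT4G34270, by 0.24, had overlapping groups. PP2AA3, at -0.09, and YLS8, at 0.00, were not called. Of 11 root markers tested 1 was higher and 2 lower: CASP2 by 1.03, and IRT1 and MYB36 by -2.99 and -1.23, all under 5 scaled CPM.

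**Figure D4:**
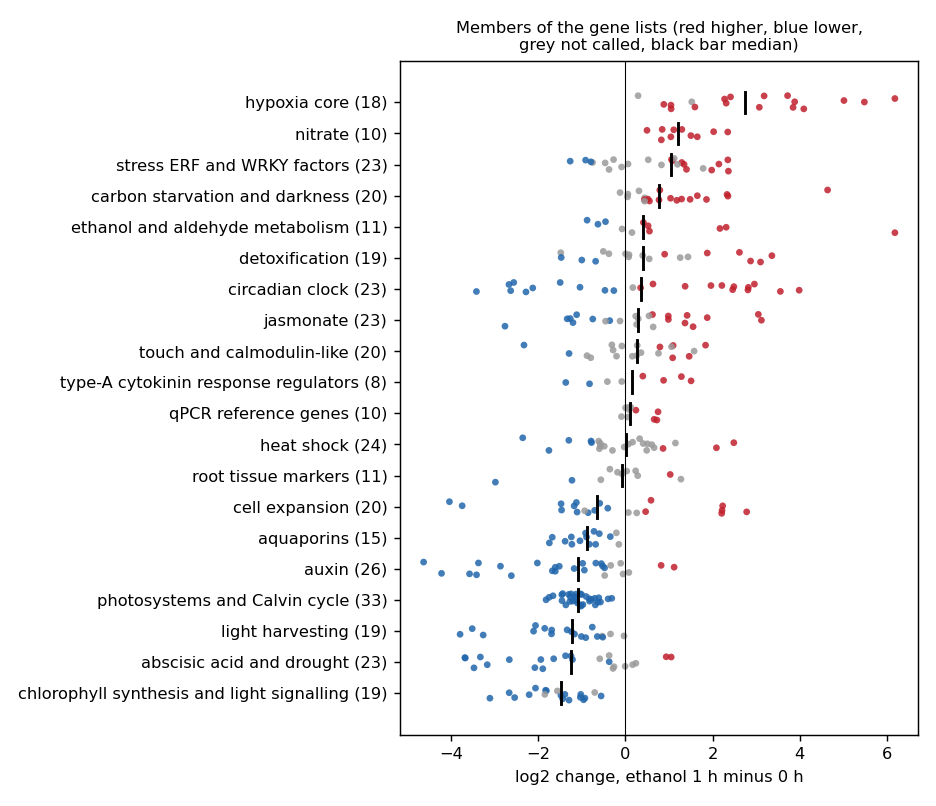
Log2 change from ethanol 0 h to 1 h of every tested member of the 20 gene lists; points are genes (red called higher, blue called lower, grey not called), bars are medians, and the number tested stands after each name. Hypoxia (median 2.74) and nitrate genes lie to the right and the photosynthesis, auxin, abscisic acid and aquaporin lists to the left.

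The lists differed in how many calls they had under the stricter limma-trend with a pseudocount of 0.5 CPM. There 2084 of 19585 loci were called, 901 higher and 1183 lower. Photosystem and Calvin cycle genes had 28 lower calls, light-harvesting genes 12, chlorophyll and light signalling genes 13, and hypoxia genes 11 higher calls. The clock list had 10 higher and 6 lower calls, the auxin list 15 lower and the abscisic acid list 10 lower. Larger drops came in the carbon starvation genes, with 6 higher, the nitrate genes, with 4 higher, and the aquaporins, with 7 lower. Of the 23 jasmonate genes 3 were called higher and 2 lower, of the 23 ERF and WRKY factors 3 and 0, and of the 20 touch genes 1 and 1. The touch genes were thus called at about the rate of all loci.

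The roots of the same groups were used to ask which changes differed between organs. Of 21092 loci tested over all 72 libraries the change differed in 9967 (47.3%), 22.4% with a higher and 24.8% with a lower change in shoots. Of the 18 hypoxia genes 17 had a higher change in shoots and 0 a lower one; in roots 2 rose and 9 fell, where 24.4% and 24.2% of all loci did. HRA1 differed by 4.86 on the log2 scale and ADH1 by 2.42. Of the 33 photosystem and Calvin cycle genes 30 had a lower change in shoots and 1 a higher one, and of the 15 aquaporins 13 and 1. In roots 18 of the 33 rose and 2 fell, and 9 of the 15 aquaporins rose and 2 fell. These differences are thus not falls in shoots alone. The difference was -2.67 for RBCS1A and -1.47 for LHCB1.1. RBCS1A rose by 2.02 in roots, from 23.0 and 15.2 scaled CPM to 93.4, 75.6 and 79.1. LHCB1.1 stood at -0.62 there and was not called, with levels of 1.93 scaled CPM or less. TOC1 differed by 2.02, LHY by -1.20 and CCA1 by -0.60, the last not called (adjusted p = 0.09). Of 23 jasmonate genes 14 had a higher change in shoots and 1 a lower one, and in roots 18 of the 23 fell and 0 rose. Of 25 heat shock genes 10 had a higher change in shoots and 1 a lower one, with 22 of the 25 falling in roots. The 20 carbon starvation genes differed in 7, with 4 higher and 3 lower in shoots, and 16 of the 20 rose in roots. The count of differing loci rests on the roots of 0 h, where replicate 1 held under 0.5 M reads: without replicate 2 of that group 2410 loci were called and without replicate 3 2514.

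**Figure D5:**
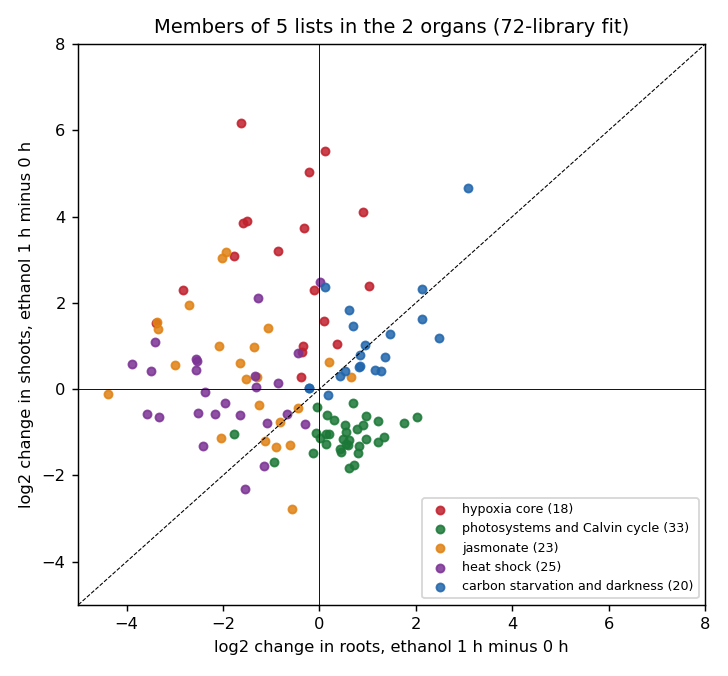
Each point is a member of 1 of 5 gene lists, with the log2 change from 0 h to 1 h of ethanol in roots on the x axis and in shoots on the y axis, both from the fit to all 72 libraries; the dashed line marks equal changes. Hypoxia genes lie above the line, photosystem and Calvin cycle genes below it, and carbon starvation genes are mostly positive in both organs.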

How the data were processed

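Per the file name, the authors deposited values after a TMM scaling: 1 table of 22122 loci and 72 libraries, in whole numbers of 1 or more, treated here as a score. TAIR10 is the build in the submitters' processing notes, while the sources used here name no aligner, counting tool or strand setting. All columns matched samples (0 not used), and replicate numbers follow the accession order and pair no samples. Values up to 150 in a library were multiples of a single factor (0.6655 to 1.311), with 1 as the floor. At least 98.7% of values matched after rounding in the 31 libraries with a factor above 1, among them all 6 compared; in the other 41 every whole number matches, so the factor rests on how often each value recurs. Reads were the values over that factor, and a floor value was taken as 0.5 read. In the 6 libraries compared, 1 CPM is 8.31 to 20.6 reads, and this precision covers counting error only.

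TMM factors were computed anew, trimming 30% of log ratios and 5% of abundances. Loci with 1 CPM in at least 3 libraries were fitted with limma 3.58.1 (R 4.3.3): voom with library quality weights, 12 group means over 36 shoot libraries, a robust prior and Benjamini-Hochberg adjustment over all loci tested. The organ difference was an interaction over all 72 libraries. The fit was tested on simulated reads. Names, positions and sequences came from RefSeq for TAIR10.1, where 21979 loci were found; 28 of the 105 named genes overlap a gene on the opposite strand (among them FRK1, ORS1, DTX1, ABR1, P5CS1, BCAT2, ADH1, FKF1, LHCB3, CAO and XTH15), whose reads cannot be told apart if strand was not used. The named genes were the 12 largest rises and falls among called, named loci with groups that do not overlap and a mean of 10 CPM or more in the higher group, up to 4 called members per list, and HRA1, LHCB1.1, CCA1, LHY, TOC1, ADH1, RBCS1A, COBL9 and CASP1; other list members named in passing were chosen after their values were seen. The 20 lists (382 genes, of which 381 are in the table and 373 were tested), the comparison and the tests were chosen with earlier results of these data known. The alternatives were other scalings, weights, filters and pseudocounts, the 6 libraries alone, and each library left out. The contrast of both intervals and leave-outs of most root libraries and of untreated, 3 h and 6 h shoot libraries were added after seeing the data. Libraries under 0.5 M reads stayed in the fits and are left out of printed levels.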

Additional observations from a re-analysis of the deposited data

Results flagged for a closer look

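The change from 0 h to 1 h of ethanol differed between shoots and roots in 9967 of 21092 loci, by limma's test of the interaction with Benjamini-Hochberg adjustment. Among the genes used to check the labels the log2 change in shoots was higher than in roots by 4.86 for HRA1, by 2.42 for ADH1 and by 2.02 for TOC1. It was lower for RBCS1A (-2.67), LHCB1.1 (-1.47) and LHY (-1.20). RBCS1A itself rose by 2.02 in roots. Groups of 3 libraries are too small for a test of a single sample that stands apart.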

How the results depend on the processing

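Counts of called loci for the shoot comparisons moved most with the model of spread. For 1 h minus 0 h the 11175 calls (5333 higher, 5842 lower) became 4956 (2185 and 2771) without library quality weights, 2084 (901 and 1183) by limma-trend with a pseudocount of 0.5 CPM and 1963 (840 and 1123) with 0.1. Of these, 4941, 2084 and 1961 were among the 11175. In the same order the count against untreated shoots, 12414, became 6974 (3112 and 3862), 3771 (1647 and 2124) and 3606 (1608 and 1998). That of 6 h minus 3 h, 3312, became 706 (393 and 313), 173 (93 and 80) and 144 (69 and 75), and that of the difference of both intervals, 9612, became 3168 (1358 and 1810), 1042 (522 and 520) and 986 (500 and 486). The organ difference, 9967, became 4679 (2413 higher, 2266 lower) without weights. Leaving out 1 library of the groups in each contrast gave 8355 to 10597 calls for 1 h minus 0 h (3958 to 5169 higher, 4397 to 5474 lower), 10852 to 11993 against untreated shoots (5257 to 6058 higher, 5595 to 6119 lower), 1681 to 3034 for 6 h minus 3 h (963 to 1743 higher, 718 to 1413 lower), 7689 to 9439 for the difference of both intervals (3588 to 4454 higher, 4101 to 5213 lower) and 2410 to 10018 for the organ difference (1673 to 4783 higher, 737 to 5318 lower); the lowest organ counts came without replicate 2 or 3 of the roots of 0 h. The scaling factors of the deposited values, median of ratios factors, quantile normalization, both filters, 0 reads at the floor, no organelle-encoded loci and the 6 libraries compared alone gave 9865 to 11314 calls for 1 h minus 0 h, and 9139 for the 6 libraries without weights, chosen after seeing the data. Of 40 counts over the lists, 32 stayed within 1.5 times without weights and 19 by limma-trend with 0.5 CPM. Of 103 named genes called, 84 stayed called in the same direction by limma-trend with 0.5 CPM and 97 without weights. RBCS1A turned to a rise under quantile normalization (0.62) and ARR15 turned to -0.10 without 0 h replicate 3, within -0.10 to 1.71 over all leave-outs. COBL9, not called, changed sign under quantile normalization (0.15), limma-trend (0.091 and 0.13), without 0 h replicate 2 or 3 and without 1 h replicate 2; leaving out 1 library gave -0.90 to 0.54, and 0.067 without 0 h replicate 2. Without 0 h replicate 3 the calls of FRK1, AT2G17740, BGLU30, HSP18.2, ARR7 and the called root markers were also lost; CYP94B3 lost its call in 5 of 6 leave-outs. The cause of these moves was not tested. No paired analysis was possible because the labels carry no replicate numbers; those used here name samples in accession order and pair nothing. Median change by gene length ran from -0.06 in the shortest of 5 classes to 0.00 in the longest. Depth limits genes near 1 CPM.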
